A study of Mus musculus with 6 samples.

Results

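Dusp6, Spry2, Spry4, Etv4, Etv5, Fgf4 and Fgfr1 belong to the FGF and ERK pathway and were described here by the accessible chromatin around them in mouse embryonic stem cells. The genes were chosen by name, and their regions were those whose midpoint lay inside a gene or within 50 kb of its annotated limits, which gave 77 of the 69689 regions in the table. All 7 symbols matched the gene table of the mm10 assembly. The region farthest out within the limit lay 31.4 to 49.7 kb from its gene, and the nearest one beyond it lay 51.7 to 78.2 kb away.

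FGF ligands bind receptor tyrosine kinases at the cell surface, and the receptors pass the signal through RAS, RAF and MEK to the kinase ERK. ERK raises transcription of its own inhibitors, such as the Sprouty proteins and the ERK phosphatase DUSP6, and of ETS factors such as ETV4 and ETV5. In embryonic stem cells, FGF4 made by the cells themselves pushes them out of the naive state, and a MEK inhibitor is used to hold them there. Capicua is a repressor that sits at many ERK target genes and that ERK signalling removes.

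The R1 line used is wild type, and all cells were grown on mouse embryonic fibroblast feeders in medium with 15% serum, LIF at 1000 U/mL, the GSK3 inhibitor CHIR-99021 at 3 μM and the MEK inhibitor PD0325901 at 1 μM. ACC-seq, in which the Tn5 transposase cuts open chromatin, was run on 6 libraries. Fresh cells (2 libraries) were tagmented unfixed at 37 °C for 30 min. Fix cells (2 libraries) were held in 1% formaldehyde for 10 min and tagmented at 55 °C for 30 min. Fix_1,6-Hex cells (2 libraries) were kept in 10% (w/v) 1,6-hexanediol for 30 s, fixed in 1% formaldehyde for 10 min with the alcohol still present, and tagmented at 55 °C for 30 min. The MEK inhibitor was thus shared by every group, and no group without it was part of the design. The table gives the position of each region and 1 of 9 cluster names. It has no value per library, so the level of accessibility, the effect of fixation or hexanediol and the depth of the libraries cannot be given for these genes, and no label or file header says what pattern a cluster name stands for. The stem cell genes Pou5f1, Sox2 and Nanog each had 1 region at a gene end, in clusters 4, 8 and 6. Feeder cells were depleted by replating, and the fibroblast genes Col1a1, Col1a2, Thy1 and Twist2 also had 1 gene-end region each, in clusters 1, 9, 1 and 9. The share of feeder chromatin in the regions below was not tested.

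The start of each gene for which RefSeq promoter windows were at hand lay wholly inside an accessible region. Windows of 300 bases (250 before the start and 50 after it, build GRCm38.p6) were available for 4 of the 7 genes, 5 windows in all because Etv5 has 2 annotated starts. All 5 were covered from end to end, both Etv5 windows by the same region. Of 21263 windows of protein-coding genes, 60.7% were touched by any region. That share counts any overlap, and the share covered from end to end is not given. The windows of Dusp6, Fgf4 and both Etv5 starts lay in cluster 4 regions, a cluster that overlapped 8.81% of all windows, and that of Spry2 lay in a cluster 5 region. The sequences that follow are shown because they are the accessible starts of the ERK inhibitor genes Dusp6 and Spry2 and of the ETS factor gene Etv5, and because they differ in their matches to the letters that capicua binds. They run 5′ to 3′ along the gene, and capitals mark the 6 letters TGAATG or TCAATG on either strand, which are the shared start of the capicua motifs TGAATGAA and TCAATGAA. The Dusp6 window is chr10:99262981-99263280 on the plus strand, and that of Spry2 is chr14:105896770-105897069 on the minus strand. The Etv5 windows are chr16:22439521-22439820 for the outer start and chr16:22438319-22438618 for the inner start, both on the minus strand.
Dusp6: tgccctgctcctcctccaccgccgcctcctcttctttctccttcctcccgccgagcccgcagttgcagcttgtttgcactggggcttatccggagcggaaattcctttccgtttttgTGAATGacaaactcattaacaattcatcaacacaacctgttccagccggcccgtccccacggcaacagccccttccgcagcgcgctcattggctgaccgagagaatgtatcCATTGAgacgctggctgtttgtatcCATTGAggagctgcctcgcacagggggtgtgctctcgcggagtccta
Spry2: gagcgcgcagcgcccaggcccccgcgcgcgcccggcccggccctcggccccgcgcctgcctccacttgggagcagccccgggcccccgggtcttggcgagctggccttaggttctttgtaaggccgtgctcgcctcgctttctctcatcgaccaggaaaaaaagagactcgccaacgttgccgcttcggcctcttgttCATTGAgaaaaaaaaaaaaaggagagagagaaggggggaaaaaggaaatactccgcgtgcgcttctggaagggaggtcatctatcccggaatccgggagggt
Etv5 outer start: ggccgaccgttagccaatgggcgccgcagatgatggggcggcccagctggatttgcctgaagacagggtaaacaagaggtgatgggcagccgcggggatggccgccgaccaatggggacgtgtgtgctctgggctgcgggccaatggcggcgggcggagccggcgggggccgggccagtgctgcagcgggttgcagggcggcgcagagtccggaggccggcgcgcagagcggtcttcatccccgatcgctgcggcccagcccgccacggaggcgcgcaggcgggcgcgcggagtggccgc
Etv5 inner start: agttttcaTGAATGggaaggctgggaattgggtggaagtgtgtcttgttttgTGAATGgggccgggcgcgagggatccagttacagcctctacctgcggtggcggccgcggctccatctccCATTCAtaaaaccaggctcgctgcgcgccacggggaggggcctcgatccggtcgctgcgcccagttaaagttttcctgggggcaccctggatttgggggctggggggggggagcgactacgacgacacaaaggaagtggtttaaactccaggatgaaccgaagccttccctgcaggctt

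The Dusp6 window held 3 matches to the 6 letters and so did the inner Etv5 window, while Spry2 held 1 and the outer Etv5 window none. Among 21263 promoter windows, 17.8% held at least 1 such match and 0.353% held 3 or more. In Dusp6 the 8 letters read TGAATGAC at position -133 and TCAATGGA at positions -22 and 4, the latter pair on the opposite strand, with position 1 at the annotated start and each match placed by the first of its capitals. In the inner Etv5 window all 3 read TGAATGGG, at positions -242, -198 and, on the opposite strand, -129. Of the 8-letter motifs searched, TGAATGAA and TCAATGAA, the only match was TCAATGAA at position -52 of Spry2, on the opposite strand. Either of these was found in 1.80% of all windows. Other 8-letter forms, such as the TCAATGGA of Dusp6, were not searched over all windows, so they may also be capicua sites. The Fgf4 window (chr7:144861136-144861435, plus strand) held no match to the 6 letters. The 6-letter search and the cutoff of 3 matches were added after the sequences had been seen. A match describes the letters only. It is not a measure of capicua binding.

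The other motifs of the first search had no match in the 5 windows. With only 5 windows, such counts cannot be set apart from the shares over all windows. Neither of the ETS motifs CCGGAAGT and ACCGGAAG, which share 7 letters and can overlap, was found in any of the 5 windows, and they were present in 5.15% and 3.01% of all windows. The SP and KLF motif GGGGCGGGG (15.4% of all windows), the octamer ATTTGCAT bound by OCT4 (1.66%) and the AP-1 motif TGACTCA (4.66%) were also without a match. Shorter letters, added after the sequences had been seen, gave 2 matches of GGGCGG in Fgf4 and 3 in the outer Etv5 window, against 46.2% of all windows with at least 1. GGAAGT, the core of an ETS motif, matched 2 times in the inner Etv5 window and was present in 24.8% of all windows. Among windows in cluster 4 regions, 27.6% held GGGGCGGGG and 74.8% held GGGCGG. All motifs were searched on both strands.

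Each of the covered starts held more CpG pairs than the median promoter window. The GC content was 57.3% in the Dusp6 window, 62.7% in that of Spry2, 74.0% and 60.0% at the outer and inner Etv5 starts, and 69.7% at Fgf4. The median over all windows was 56.3%, and over the 1874 windows in cluster 4 regions it was 63.0%. Over the windows in any region it was 62.0%, and the Dusp6 and inner Etv5 windows fell below that. The number of CpG pairs was 19 in Dusp6, 28 in Spry2, 37 and 19 at the outer and inner Etv5 starts, and 28 in Fgf4. The medians were 13 over all windows and 23 over windows in cluster 4 regions, so the Dusp6 and inner Etv5 windows fell below the latter and the other windows above it.

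Every one of the 7 genes had a region at a gene end, and in 5 of them at least 1 such region belonged to cluster 4. A gene end means within 1 kb of either annotated limit, measured from the midpoint of the region. Of 21887 protein-coding genes, 60.9% had any region at a gene end and 8.24% had one of cluster 4. With a window of 500 bp, 5 of the 7 genes had any gene-end region (49.3% of protein-coding genes) and 3 had one of cluster 4 (6.72%), so the count depends on the window. Among the 13321 genes with a gene-end region, 13.5% had one of cluster 4. The 5 genes with cluster 4 were Dusp6, Spry4, Etv4, Etv5 and Fgf4. Spry2 had cluster 5 and Fgfr1 had clusters 8 and 1. Since the genes were named in advance for their place in 1 pathway, with earlier results of these data known, the counts are a description and carry no test.

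**Figure D1:**
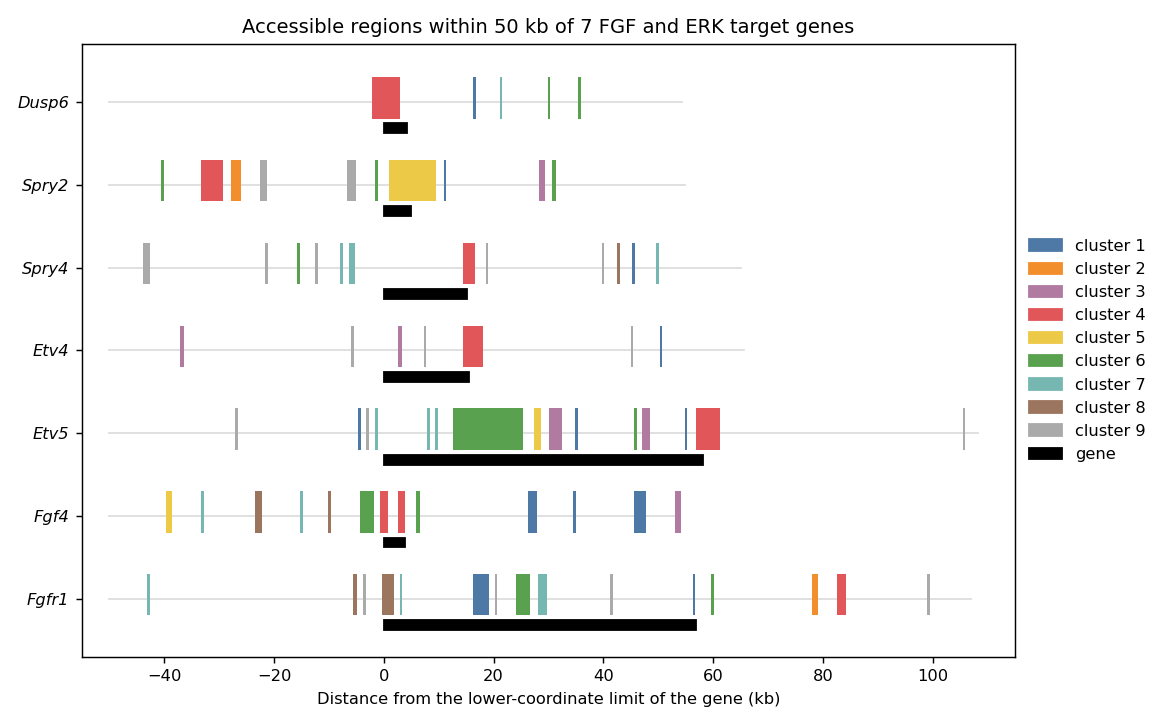
Position of all 77 accessible regions around the 7 genes, in kb from the lower-coordinate limit of each gene (black bar), coloured by cluster. Regions under 0.5 kb are drawn 0.5 kb wide so that they can be seen. Cluster 4 regions (red) lie at a limit of Dusp6, Spry4, Etv4, Etv5 and Fgf4, and the broad cluster 6 region lies inside Etv5.

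Dusp6 encodes the phosphatase that removes phosphate from ERK in the cytoplasm. The gene (chromosome 10, 99263231 to 99267489) had 5 regions, or 4.80 per 100 kb of the window searched. Its start and most of its body lay in a cluster 4 region of 5125 bp (99261113 to 99266237), a width reached by 0.95% of cluster 4 regions. The remaining 4 regions all lay downstream, 12.1, 16.9, 25.8 and 31.4 kb from the gene, and were narrow. The nearer pair, of clusters 1 and 7, were 200 bp wide each, and the farther pair, both of cluster 6, were 459 and 551 bp wide. No region was listed in the 50 kb upstream of Dusp6 other than the one that covers its start, and no other protein-coding gene lay within 50 kb.

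Spry2 and Spry4 encode Sprouty proteins, which dampen receptor tyrosine kinase signalling upstream of ERK. Spry2 (chromosome 14, 105891947 to 105896819) also had no other protein-coding gene within 50 kb, and it had 10 regions (9.54 per 100 kb) from 7 clusters. The region at its start, of cluster 5, spanned 8532 bp (105892900 to 105901431) and ranked 31st in width among all 69689 regions. A width this large was reached by 0.170% of cluster 5 regions. Downstream of the gene, 31.2 kb away, lay a cluster 4 region of 3986 bp (105858714 to 105862699), next to a cluster 2 region of 1773 bp at 26.9 kb. Clusters 2 and 4 made up 2.27% and 3.47% of all regions but 1.00% and 1.6% of those over 1 kb from any protein-coding gene end, where both of these regions lay. The others were 3 cluster 6 regions of 349, 612 and 693 bp, 2 cluster 9 regions of 1235 and 1552 bp, and 1 each of cluster 1 (306 bp) and cluster 3 (1074 bp). The cluster 9 pair was wide for its cluster, in which 5.17% and 2.63% of regions were as wide.

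Spry4 (chromosome 18, 38586247 to 38601347) had 12 regions (10.4 per 100 kb), 5 of them of cluster 9 and 3 of cluster 7. The cluster 4 region at its higher-coordinate limit was 2115 bp wide (38600743 to 38602857). That limit is 0.270 kb from the lower limit of Arhgap26, so the region belongs to a pair of neighbouring gene ends and cannot be assigned to Spry4 alone. Arhgap26 was the nearest protein-coding gene for 6 of the 12 regions. On the side away from Arhgap26, 6 regions of 264 to 1215 bp lay 5.78 to 43.3 kb from Spry4, with 3 of cluster 9, 2 of cluster 7 and 1 of cluster 6. None had its midpoint inside the gene.

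ETV4 and ETV5 are ETS transcription factors of the PEA3 group, whose genes are activated by FGF signalling in many tissues. Etv4 (chromosome 11, 101769747 to 101785310) had 7 regions (6.06 per 100 kb). The cluster 4 region at its higher-coordinate limit was 3749 bp wide (101784164 to 101787912), a width reached by 3.43% of cluster 4 regions. The other 6 were 200 to 695 bp wide. Inside the gene lay a cluster 3 region of 695 bp and a cluster 9 region of 200 bp, and beyond the cluster 4 region lay a cluster 9 region of 365 bp at 29.6 kb and a cluster 1 region of 272 bp at 34.8 kb. The RNA helicase gene Dhx8 lies 2.39 kb away. Inside Dhx8 was a cluster 9 region of 312 bp, and over its far limit, 36.8 kb from Etv4, a cluster 3 region of 663 bp.

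Etv5 (chromosome 16, 22381313 to 22439570) held the widest region of the whole table. It was a cluster 6 region of 12664 bp (22393998 to 22406661) inside the gene, the only one of that width. Together with 14 others it made 15 regions (9.48 per 100 kb), of which 9 lay inside the gene. The cluster 4 region at the start was 4321 bp wide (22438260 to 22442580) and took in both annotated starts. Between the widest region and the start were 2 cluster 3 regions of 2356 and 1364 bp, 1 cluster 5 region of 1270 bp, 1 more cluster 6 region of 463 bp and 2 cluster 1 regions of 599 and 430 bp. On the other side of the widest region, towards the end of the gene, were 2 cluster 7 regions of 363 and 316 bp inside the gene and 4 narrow regions downstream of it. These were of cluster 7 (289 bp, at 1.46 kb), cluster 9 (479 bp, at 3.03 kb), cluster 1 (212 bp, at 4.54 kb) and cluster 9 (318 bp, at 26.9 kb). The last of the 15, of cluster 9 and 219 bp wide, lay 47.3 kb upstream and was nearest to Dgkg. Regions in the table are at least 1001 bp apart, so a wide region may join sites that lay closer together than that, and no label describes the merging. The gene table gives no exons, so exons and introns are not named.

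FGF4 is the main FGF ligand of naive embryonic stem cells. Its gene (chromosome 7, 144861386 to 144865245) had the densest surroundings of the 7, with 13 regions (12.5 per 100 kb), a density reached by 7.27% of protein-coding genes. A cluster 4 region lay at each end, of 1440 bp over the start (144860727 to 144862166) and of 1250 bp over the far end (144864048 to 144865297). The far end of Fgf4 is known to carry an enhancer bound by OCT4 and SOX2. A cluster 6 region flanked the gene on either side, of 2506 bp at 3.05 kb upstream and of 830 bp at 2.35 kb downstream. The remaining 9 regions lay nearer to another gene. Of these, 5 were nearest to Fgf3 (clusters 5, 7, 8, 7 and 8 in order of position), 2 to Fgf15 (both cluster 1) and 2 to LTO1 (clusters 1 and 3). Fgf3 and Fgf15, which also encode FGF ligands, lie 18.0 and 31.3 kb from Fgf4, so most of the density belongs to a stretch with several genes.

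Fgfr1 encodes the FGF receptor that embryonic stem cells mostly use. The gene (chromosome 8, 25518759 to 25575718) had 15 regions (9.56 per 100 kb), 8 of them with the midpoint inside it. The lower-coordinate limit carried a cluster 8 region of 2129 bp (25518485 to 25520613), and the other limit carried a cluster 1 region of 412 bp. Within the gene, 3 wide regions lay close together 17.7 to 28.1 kb from the nearer limit, of cluster 1 (2829 bp), cluster 6 (2541 bp) and cluster 7 (1519 bp), with a cluster 9 region of 303 bp among them. The width of the cluster 7 region was reached by 5.48% of that cluster. The cluster 4 region counted for Fgfr1 (1639 bp) was 26.4 kb away and was nearest to Nsd3, and the cluster 2 region (1038 bp) was nearest to Letm2, so Fgfr1 had no region of clusters 2, 3 or 4 of its own.

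The regions at the ends of these genes had a larger median width than the 68 others around them, whose median was 527.5 bp. The region of 412 bp at Fgfr1 was narrower than that. The 9 gene-end regions were 412 to 8532 bp wide with a median of 2129 bp, against 1039 bp for all regions in the table at a gene end. The 61 of the 77 regions over 1 kb from any protein-coding gene end had a median of 479 bp, against 415 bp for all such regions. Over all 77 the median was 599 bp, against 474 bp in the whole table and 490 bp within 50 kb of any protein-coding gene. Regions of 4 kb or more were found near 3 of the 7 genes, Dusp6, Spry2 and Etv5, which had 4 such regions of 570 in the table. Such a region lay within 50 kb of 7.08% of protein-coding genes. At the narrow end, 4 of the 77 regions had the smallest width in the table, 200 bp.

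**Figure D2:**
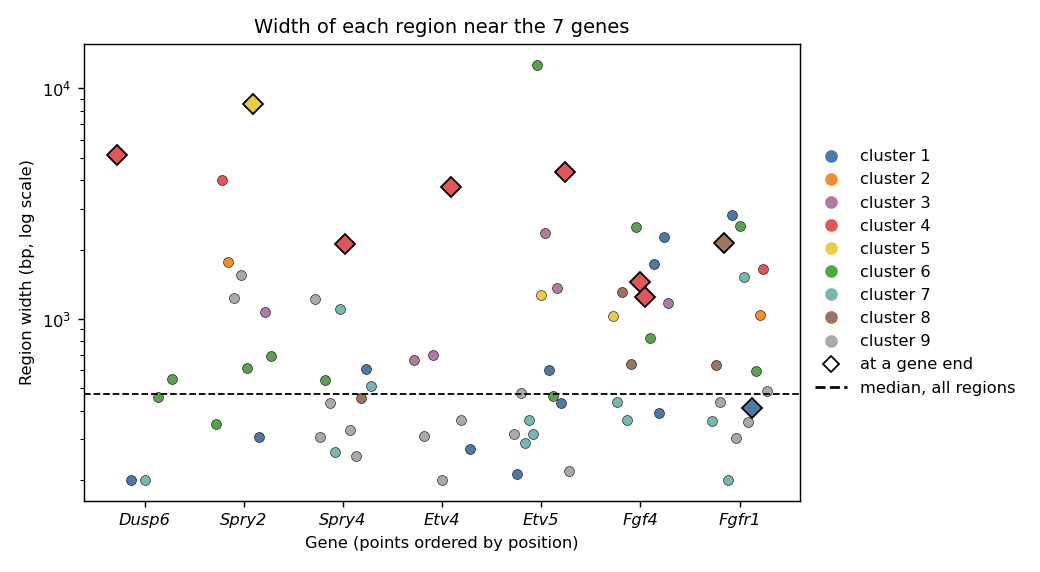
Width in bp (log axis) of each of the 77 regions, by gene, coloured by cluster, with diamonds for the 9 regions within 1 kb of a gene limit and a dashed line at the median of all regions, 474 bp. The diamonds of Dusp6, Spry2, Spry4, Etv4, Etv5 and Fgf4 lie above the line, and the diamonds of Fgfr1 lie on either side of it, at 2129 and 412 bp.

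The genes also differed in how many regions surrounded them. The number ran from 5 at Dusp6 and 7 at Etv4 through 10 at Spry2, 12 at Spry4 and 13 at Fgf4 to 15 at both Etv5 and Fgfr1, with a median of 12. Protein-coding genes had a median of 7 (quartiles 3 and 11), and 22.3% had 12 or more. Per 100 kb the 7 genes had a median of 9.54 regions, against 4.74 (quartiles 1.82 and 8.37). Dusp6 was close to the middle of that range and Etv4 within its quartiles, while the other 5 genes lay above the upper quartile. Another protein-coding gene was nearer for 22 of the 77 regions. These are single counts from 1 table, so no spread between libraries can be given for the order of the genes.

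Pooled over the 7 genes, the cluster shares were close to those of the whole table except for clusters 4 and 3. Cluster 4 held 8 of the 77 regions (10.4%, exact binomial 95% CI 4.59 to 19.4), against 3.47% of all regions and 3.78% of those within 50 kb of a protein-coding gene. Cluster 3 held 6 (7.79%, 2.91 to 16.2), against 3.61%, and its interval takes that in. Among the 6 were a region over a limit of Dhx8 and another over a limit of LTO1. The intervals treat neighbouring regions as independent and cover counting error only. Cluster 9 held 17 regions (22.1%, against 26.2%), clusters 1, 6 and 7 held 12 each (15.6%, against 18.7%, 12.7% and 18.9%), cluster 8 held 5 (6.49%, against 9.04%), cluster 5 held 3 (3.90%, against 5.06%) and cluster 2 held 2 (2.60%, against 2.27%). Each of these intervals also takes in the share of the whole table.

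**Figure D3:**
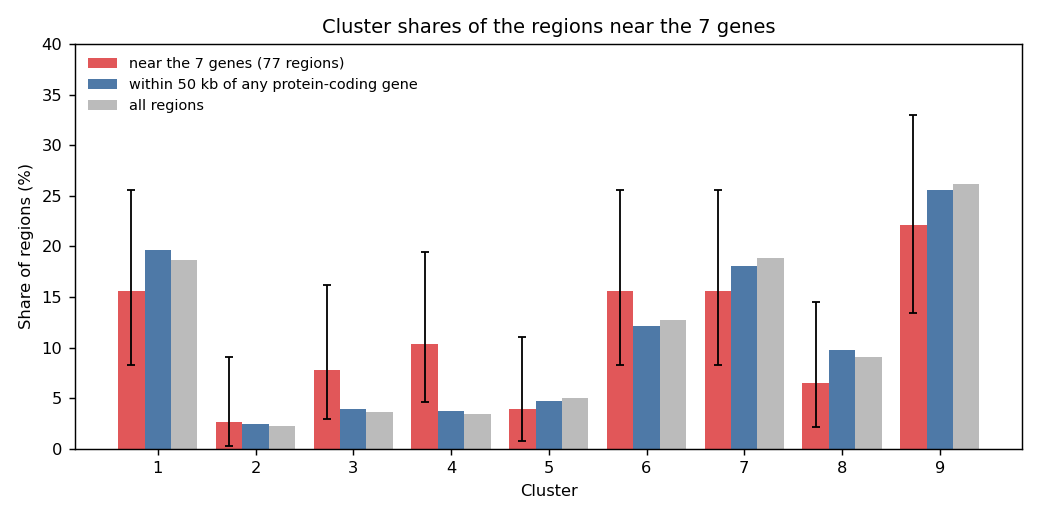
Share of regions (%) in each of the 9 clusters, for the 77 regions near the 7 genes (red, bars with exact binomial 95% intervals), regions within 50 kb of any protein-coding gene (blue) and all 69689 regions (grey). Cluster 4 is the one whose red interval, 4.59 to 19.4%, lies above the grey share of 3.47%.

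Most cluster 4 regions of these genes sat at gene ends. Of its 8 regions 6 were at an end of one of the 7 genes, and the 2 elsewhere were the region downstream of Spry2 and the one near Nsd3. Among the 61 of the 77 regions over 1 kb from any protein-coding gene end, cluster 4 held 1.64%, against 1.6% of all such regions. Cluster 3 held 4 of these 61 (6.56%, exact binomial 95% CI 1.82 to 15.9), also against 1.6%, and the 4 lay near Spry2, Etv4 and Etv5, the last with 2 of them. All 7 genes had a cluster 4 region within 50 kb, which was true of 27.4% of protein-coding genes and of 36.5% of those with 5 to 15 regions, the range of the 7 genes. A cluster 6 region lay near 6 of the 7 genes, all but Etv4, against 43.9% of protein-coding genes and 56.3% of those with 5 to 15 regions. Cluster 6 is the cluster in which Nanog has its gene-end region. Cluster 1 was found near all 7 genes (background 63.3%), cluster 7 near 5 (57.2%) and cluster 9 near 5 (67.5%), and these counts rise with the number of regions around a gene. The 12 cluster 6 regions all lay away from the ends of the 7 genes. Cluster 6 is uncommon there in general, at 6.7% of the protein-coding genes with a gene-end region. Of the 70 pairs of adjacent regions around these genes 10 shared a cluster (14.3%), against 19.3% of the 58827 adjacent pairs within 50 kb in the table. None of the 14 pairs around Fgfr1 and 3 of the 11 around Spry4 were of this kind.

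For each gene, the protein-coding gene with the most similar counts over the 9 clusters within 50 kb was looked up among those with at least 5 regions and over 500 kb away. The likeness is the summed difference of the 9 counts. It was 0 for Dusp6 with Nxt1, for Spry4 with F2r and for Fgfr1 with Tmc2. It was 1 for Spry2 with Gm17660, for Etv4 with Hsd17b11, for Etv5 with Chst5 and for Fgf4 with 4930432K21Rik. F2r and Gm17660 were each 1 of 2 genes at that difference, chosen by the nearer total and then by the alphabet. A gene with nearly equal counts was found elsewhere for each, and none of the 7 was the closest match of another. Each search covered 13856 to 13896 genes, so neither outcome sets the 7 genes apart. How often other genes have so close a match was not computed.

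The other genes of the pathway, 72 placed genes in 6 lists, had a gene-end region in 65 cases (90.3%, exact binomial 95% CI 81.0 to 96.0), against the 60.9% of protein-coding genes given above. Cluster 4 was present in 14 of these 65 (21.5%, 12.3 to 33.5), against 13.5%. Among ligand genes 9 of 13 had a gene-end region, and cluster 1 was found at 6 of them, including Fgf2, Fgf5 and Fgf8. Fgf3 had cluster 8, and the cluster 4 gene was Fgf17. The regions at Fgf3 and Fgf15 are among those counted around Fgf4. All 10 receptor and co-receptor genes had one, again with cluster 1 at 4 of them, such as Fgfr3 and Fgfr4. Fgfr2 had cluster 6, Fgfrl1 had cluster 8, and the syndecan genes Sdc1 and Sdc4 had cluster 4. Among all covered protein-coding genes 21.6% had cluster 1. Fgfr1 had it at the limit away from its cluster 8 region.

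Within the cell, all 11 genes of the adaptors and RAS proteins and all 11 of the kinases and scaffolds had a gene-end region. The adaptor genes Frs2 and Grb2 had 2 each, of clusters 7 and 8 and of clusters 7 and 3, while Gab1 had cluster 3 and Ptpn11, which encodes the phosphatase SHP2, had cluster 1. Cluster 4 was found at Frs3 and Shc1. Of the kinase genes Araf and Braf had cluster 1, and the MEK1 gene Map2k1 had cluster 3. Of these 22 genes 27.3% had cluster 1, 22.7% cluster 3, 31.8% cluster 8 and 13.6% cluster 4, against 21.6%, 14.3%, 24.1% and 13.5% of all covered genes.

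Negative feedback genes other than the 7 had cluster 4 in 5 of 12 covered genes (41.7%, exact binomial 95% CI 15.2 to 72.3). The share over all covered protein-coding genes was 13.5%. The 5 were the Sprouty-related genes Spred1 and Spred3 and the phosphatase genes Dusp1, Dusp5 and Dusp7, named here after their clusters had been seen. Spry1, another Sprouty gene, had cluster 1, and Dusp2 had cluster 8. The other covered genes without cluster 4 were Dusp4 and Nf1 (cluster 8), Dusp9 (cluster 1), Il17rd (cluster 2) and Rasa1 (cluster 3). Spred2 had no gene-end region but had 20 regions within 50 kb. Spry3 was left out, since the gene table lists it on an unplaced scaffold. Of the transcription factors and other targets 12 of 14 were covered. Cluster 4 was found at 3 of these 12 (exact binomial 95% CI 5.49 to 57.2%). That interval takes in the 13.5% of all covered genes. The 3 were Etv1, the third PEA3 gene beside Etv4 and Etv5, Egr1 and Phlda1. Fosl1 and Srf had cluster 1, Ier2 cluster 5, Ier3 cluster 6 and Myc cluster 8. Erf and Egr2 had no gene-end region. Elk1, Elk3 and Elk4, ETS factors phosphorylated by ERK, had clusters 5, 9 and 3, and Cic, which encodes capicua, had cluster 2. With the 500 bp window none of Etv1, Etv4 and Etv5 was counted with cluster 4. Differences between the lists were not tested.

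**Figure D4:**
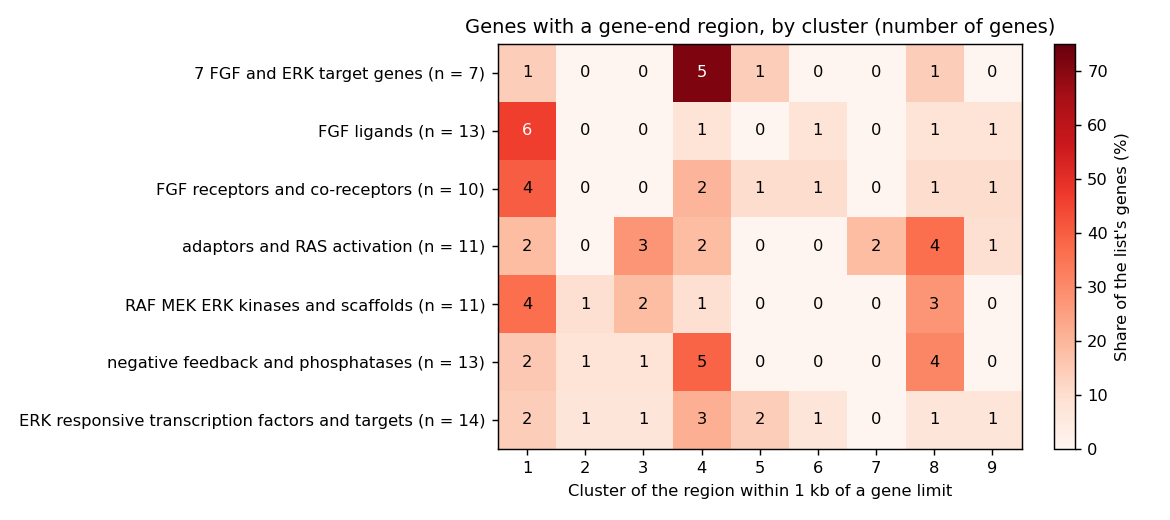
Number of genes with a region within 1 kb of a gene limit, by cluster (columns), for the 7 genes and the 6 lists of other pathway genes (rows, with the number of genes in each), shaded by the share of the list's genes in %. A gene with regions of several clusters counts in each. Cluster 4 holds 5 of the 7 genes and 5 of the 13 other negative feedback genes, and cluster 1 holds 6 of the 13 ligand genes.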

How the data were processed

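Chromatin accessibility was profiled in 6 libraries of R1 cells, 2 in each of 3 groups. Per the submitters' processing notes, the tools were SAMtools 1.6, Picard, Bowtie2 2.3.3.1 and cutadapt 1.18, and the build was mm10. How regions were called, joined and clustered is not stated in any label or header at hand. The authors deposited 1 table of 69689 positions with a cluster name and no signal, so the planned fits between groups were not run and depth is unknown.

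Midpoints of regions, with positions counted from 1, were set against the limits of 21887 protein-coding genes (RefSeq, GRCm38.p6, without strand). Strand and promoter sequences came from a RefSeq table that held 4 of the 7 genes, and nothing beyond these windows was used. The genes, the pathway lists and the tests were chosen with earlier results of these data known. All comparisons are descriptive. Intervals are exact binomial (Clopper-Pearson, 95%) and treat regions or genes as independent. Named were all 7 genes, the first 4 covered genes of each pathway list in list order, and the gene most alike each of the 7. Genes named otherwise were chosen after their values were seen. Some results at single genes of these lists are left out of the text. Assignment and motif search were tested on simulated positions. Alternatives were other distances, any overlap, the nearest gene only, equal weights and leaving out each gene. The background of genes with 5 to 15 regions, the shorter motifs and the cutoff of 3 matches were added after seeing the data. The software was matplotlib 3.10.9, SciPy 1.17.1, pandas 2.3.3 and numpy 2.4.6 under Python 3.11.15.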

Additional observations from a re-analysis of the deposited data

How the results depend on the processing

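No paired analysis was possible because the table holds no value per library, and for the same reason no library could be left out. With a distance of 20 kb the 7 genes had 47 regions in place of 77, and the share of cluster 2 became 0%. The cluster 4 share became 1.64% among the 61 regions over 1 kb from any gene end, close to the 1.6% of all such regions. With a gene-end window of 500 bp, 5 of the 7 genes kept a gene-end region, cluster 4 was counted at 3 of the 7 genes in place of 5 (6.72% of protein-coding genes) and at 9 of the 72 other pathway genes in place of 14. The midpoints of the cluster 4 regions at Etv4 and Etv5 lie 0.728 and 0.85 kb from the gene limit. The share of genes with at least the 7 genes' median number of regions became 13.7% among all annotated genes and 21.7% with regions of at least 300 bp. Leaving out each of the 7 genes in turn gave cluster 4 shares of 9.38% to 11.3%. Leaving out 113 protein-coding genes listed on unplaced scaffolds, an alternative added after seeing the data, gave backgrounds of 61.2% with a gene-end region and 8.28% with cluster 4. The remaining alternatives moved a share by less than its 95% interval or a count by less than 1.5 times. The starts of Spry4, Etv4 and Fgfr1 were not placed, since their strand was not at hand.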
